A study of Homo sapiens with 12 samples.

Results

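The genes described here are 10 secreted products and regulators of goblet cells, the mucus-secreting cells of the intestinal epithelium: REG4, SPINK4, TFF1, TFF2, TFF3, AGR2, AGR3, SPDEF, ATOH1 and RETNLB. They were taken by gene symbol from a table of 25528 rows, and all 10 were found. The list was drawn up when values of these genes in both perturbations were already known, including the fall of REG4 and the opposite direction of RETNLB. Levels and fold changes in CTNNB1 against GFP and in shAPC against shNT1 are therefore given as a description. Where a gene is said to pass a threshold there, this says on which side of it the fit of all genes put that gene, and no p-value is given or support drawn from it. P-values for single genes of the list are given for the difference between the perturbations and for the difference between their controls. The first is built from the arm values already known, so its p-values are a description and no support is drawn from them.

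All 12 RNA-seq libraries came from HT-29, a human cell line from a colon adenocarcinoma that the labels call APC mutant, in 4 groups of 3. All groups carried a lentivirus. The GFP (control) and CTNNB1 groups received an open reading frame and were harvested at 2 days from infection. The shNT1 (control hairpin) and shAPC (hairpin against APC) groups were harvested at 1 day of 2 µM doxycycline induction. CTNNB1 encodes beta-catenin, and APC belongs to the complex that degrades it, so both perturbations address WNT signalling. The labels give no promoter or clone for the constructs, and they do not say whether replicates were separate cultures, so p-values measure only the spread between these libraries.

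Goblet cells belong to the secretory lineage, which the transcription factor ATOH1 opens where Notch signalling is low. SPDEF acts downstream of ATOH1 and drives goblet cell maturation. Mature goblet cells release gel-forming mucin together with small proteins such as the trefoil factors, and rely on endoplasmic reticulum proteins of the AGR family for folding their cargo. WNT signalling through TCF/LEF factors and beta-catenin maintains the crypt base, away from the differentiated cells.

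Levels are in TPM, a transcript abundance scaled for transcript length that sums to the same total in every library. Each library listed between 14756 and 16186 genes above 0 TPM, and libraries of 1 group correlated at 0.9912 to 0.9974 (Pearson, log2 scale). APC fell from a mean of 16.4 ± 0.803 TPM in shNT1 to 5.99 ± 0.558 TPM with the hairpin (SD, n = 3 each, limma adjusted p = 6.1e-06). CTNNB1 stood at 146.3 ± 2.87 TPM in GFP against 160.1 ± 4.24 TPM with the CTNNB1 reading frame (SD, n = 3 each). That log2 difference of 0.13 missed the threshold (limma adjusted p = 0.059). The WNT target AXIN2 rose in both arms (log2 1.04 and 1.59, limma adjusted p = 3e-06 and 3.5e-07).

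The name of the gene list was checked against goblet cell markers outside it. MUC2, the gel-forming mucin of colonic goblet cells, lay between 0.23 and 0.725 TPM in the 12 libraries. CLCA1, ZG16 and ITLN1, other goblet cell products, were each listed at 0 in 11 of 12 libraries, and FCGBP reached at most 1.22 TPM. CDX2, a colonic identity factor, stayed at or below 0.875 TPM. The other 6 of 7 genes listed for colon epithelium averaged at least 1 TPM (EPCAM, KRT8, KRT18, KRT19, CDH1 and VIL1). These goblet cell products were thus near 0. They belong to a list of 22 further goblet genes described below, of which 12 averaged at least 1 TPM in each arm. The highest group means among those 12 were 385 to 455.2 TPM for XBP1, 72.7 to 142.4 for CREB3L1, 57.4 to 78.9 for GALNT12 and 43 to 66.6 for BCAS1. The others of the 12 had group means between 2.19 TPM (CAPN9 in CTNNB1) and 21.4 TPM (SYTL2 in shNT1). The list of 10 is called here by its genes rather than as a sign of goblet cells.

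Promoter sequences show which WNT-related letters lie at the start of the genes that moved most. RefSeq promoters (GRCh38.p14, 250 bases before to 50 after the gene start) matched 7 of the 10 genes, and TFF1, TFF2 and TFF3 had no entry. Printed are REG4, SPINK4 and AGR3, which fell most in shAPC among those matched, and RETNLB, which rose. Each runs 5′ to 3′ on the strand of the gene, and capitals mark the TCF/LEF core CTTTGA or CTTTGT, or its reverse complement.
REG4 promoter, chr1:119811411-119811710, minus strand: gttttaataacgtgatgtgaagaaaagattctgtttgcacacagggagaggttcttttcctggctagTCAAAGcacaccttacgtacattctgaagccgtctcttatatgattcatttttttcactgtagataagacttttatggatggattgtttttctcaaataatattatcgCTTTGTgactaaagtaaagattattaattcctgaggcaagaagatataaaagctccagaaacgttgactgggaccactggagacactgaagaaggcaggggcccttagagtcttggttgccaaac
SPINK4 promoter, chr9:33239917-33240216, plus strand: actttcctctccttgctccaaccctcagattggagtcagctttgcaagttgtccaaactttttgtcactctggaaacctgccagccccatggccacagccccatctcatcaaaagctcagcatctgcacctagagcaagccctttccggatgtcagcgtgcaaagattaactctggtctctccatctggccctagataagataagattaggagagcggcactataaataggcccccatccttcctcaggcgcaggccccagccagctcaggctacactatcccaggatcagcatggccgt
AGR3 promoter, chr7:16881934-16882233, minus strand: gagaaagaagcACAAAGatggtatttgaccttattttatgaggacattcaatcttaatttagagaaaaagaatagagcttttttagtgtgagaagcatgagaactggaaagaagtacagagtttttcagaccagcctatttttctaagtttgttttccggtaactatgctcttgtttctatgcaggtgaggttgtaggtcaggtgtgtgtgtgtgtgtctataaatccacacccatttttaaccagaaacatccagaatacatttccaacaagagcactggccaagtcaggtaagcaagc
RETNLB promoter, chr3:108757361-108757660, minus strand: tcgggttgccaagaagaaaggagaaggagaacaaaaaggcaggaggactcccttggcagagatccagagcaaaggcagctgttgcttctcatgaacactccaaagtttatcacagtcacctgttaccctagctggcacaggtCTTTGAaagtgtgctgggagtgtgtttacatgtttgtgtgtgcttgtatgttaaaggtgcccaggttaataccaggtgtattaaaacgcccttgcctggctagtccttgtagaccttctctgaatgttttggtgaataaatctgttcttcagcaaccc
REG4 held 2 core matches, 1 of each form, AGR3 and RETNLB held 1 each and SPINK4 held 0. Over all 35116 promoters of this length, 26.2% held at least 1 match of either form, against 4 of the 7 matched here. The E-box CANNTG, searched on both strands and bound by ATOH1 and other factors of its family, occurred 3 times in RETNLB, 2 times in SPINK4 and in AGR3, and 0 times in REG4. It occurs in 68.7% of all promoters. The letters TATAAA began 31 bases before the gene start in REG4 and in AGR3 (position -31 in both) and at -29 in SPINK4, were not found on either strand in RETNLB, and occur in 11.5% of all promoters. The matches of the 3 motifs did not overlap each other in these promoters. The motifs were chosen after the sequences had been seen, and a match describes the letters only.

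The 10 genes covered a wide range of levels. AGR2, a disulfide isomerase-like protein of the endoplasmic reticulum needed for mucin production, averaged 1543.2 TPM over the 12 libraries, rank 88 of all genes, and made up 90.1% to 95.1% of the summed TPM of the list. REG4, a secreted C-type lectin, averaged 49 TPM and AGR3 averaged 47.9 TPM. TFF1 (12.1 TPM) and SPDEF (11.3 TPM) followed, and RETNLB, SPINK4, TFF3, ATOH1 and TFF2 averaged 5.45, 3.75, 3.13, 1.65 and 1.35 TPM. The authors' deposited tables gave mean log2 expression between -2.88 and -1.83 for SPINK4 and TFF2, the lowest of the list.

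**Figure D1:**
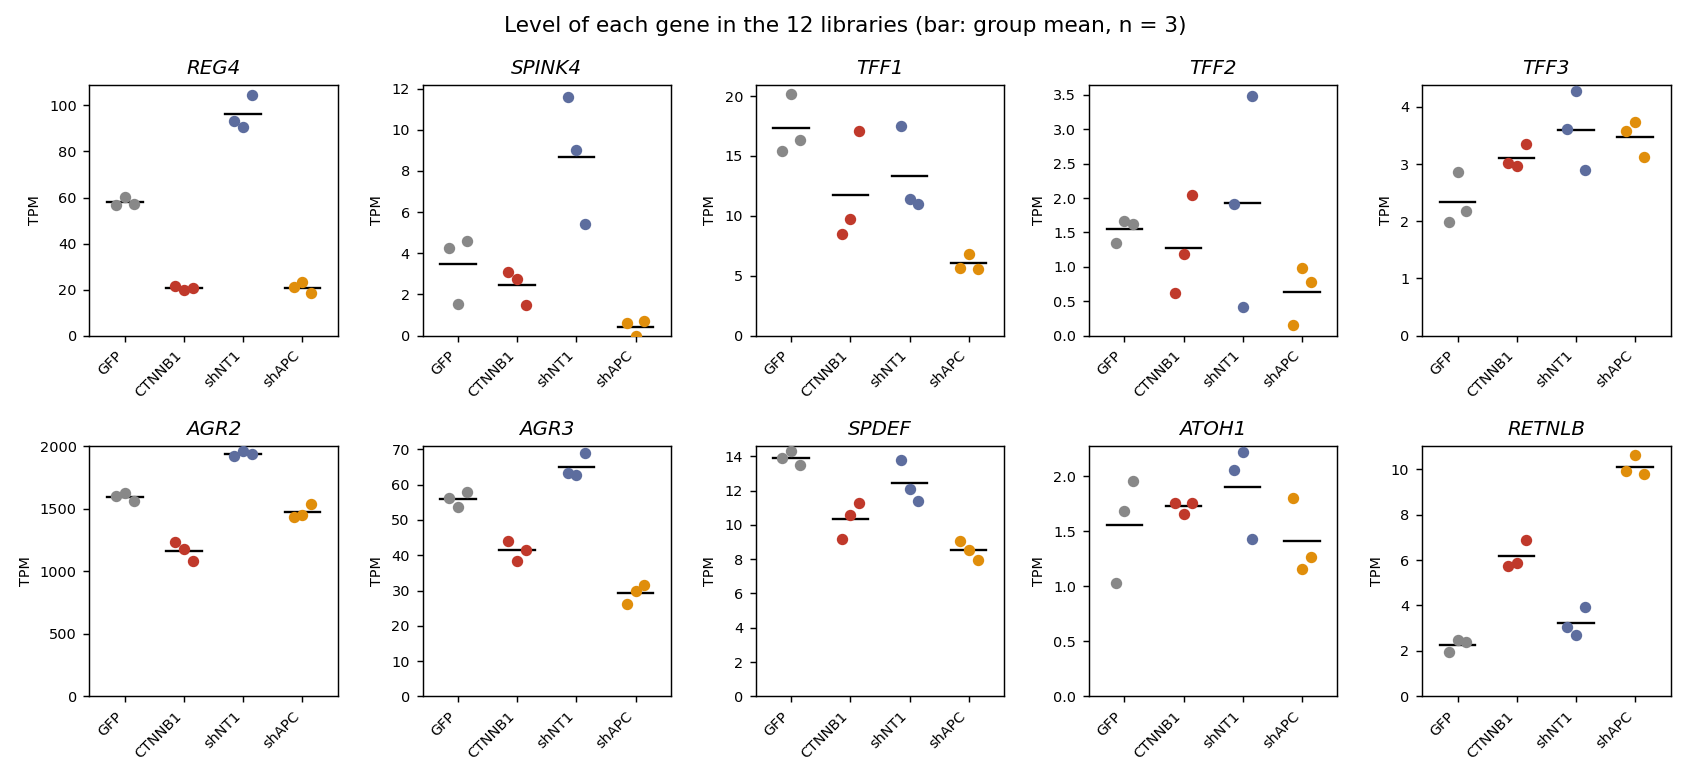
Level of each of the 10 genes in TPM (y axis from 0) in the 4 groups (x axis); each point is 1 library and each bar the mean of 3. REG4 sits near 21 TPM in both perturbed groups and between 56.8 and 104.6 TPM in the controls, while RETNLB is highest in the perturbed groups.

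In CTNNB1 against GFP, 5 of the 10 genes passed the threshold of an adjusted p under 0.05 in a limma fit of all genes, 4 lower (REG4, AGR2, AGR3 and SPDEF) and 1 higher (RETNLB). The background was 23.5% of 11624 genes tested, 7.16% lower and 16.3% higher. In shAPC against shNT1, 7 passed, 6 lower (REG4, SPINK4, TFF1, AGR2, AGR3 and SPDEF) and 1 higher (RETNLB), where the background was 22.1% of 11834 genes, 14.9% lower and 7.24% higher. The 3 libraries of one group lay wholly apart from the 3 of the other for 6 genes in the CTNNB1 arm (4 lower, 2 higher), where 43.2% of all genes did so (13% lower, 30.2% higher). They did so for 7 genes in the shAPC arm (6 lower, 1 higher), where 40.9% of all genes did (26.4% lower, 14.5% higher). All 10 genes passed the filter of a mean TPM of at least 1 over both groups of each arm, so none was left out. In the shAPC arm SPINK4 and TFF2 passed it only through shNT1, where they averaged 8.65 and 1.94 TPM, against 0.438 and 0.641 TPM in shAPC. SPINK4 is among the 6 counted as lower there. The median log2 difference of the 10 was -0.36 in the CTNNB1 arm and -0.61 in the shAPC arm, against 0.06 and -0.04 over all genes. These counts describe the choice of genes and support nothing beyond it. In bulk RNA, fewer cells that make a product and less RNA per cell cannot be told apart.

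REG4 had the largest fall of the list in the CTNNB1 arm. Its TPM was 56.8, 60.3 and 57.0 in GFP and 21.7, 20.0 and 20.8 in the CTNNB1 libraries. It was 93.3, 90.5 and 104.6 in shNT1 and 21.0, 23.2 and 18.4 in shAPC. The groups of each arm were far apart, and both perturbed groups ended at nearly the same level from different control levels. The fold differences were 2.78 lower in the CTNNB1 arm and 4.6 lower in the shAPC arm. On the log2(TPM + 1) scale these are -1.43 (95% interval -1.56 to -1.31) and -2.15 (-2.34 to -1.96).

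SPINK4, a Kazal-type protease inhibitor secreted by goblet cells, was low in every library. GFP libraries held 4.27, 1.54 and 4.61 TPM and CTNNB1 libraries 3.09, 2.75 and 1.49 TPM, so these groups overlapped. The shNT1 libraries held 11.6, 9.0 and 5.4 TPM, all above the shAPC libraries at 0.606, 0 and 0.706 TPM, where 1 library is listed at 0. The log2 difference was -0.33 (-0.97 to 0.32) in the CTNNB1 arm, outside the threshold, and -2.73 (-3.29 to -2.17) in the shAPC arm. With a pseudocount of 0.1 in place of 1 the latter was -4.44, and without GFP replicate 2 the former was -0.69 and passed.

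The trefoil factors are small, protease-resistant secreted peptides that lie side by side on chromosome 21. In GRCh38.p14, TFF3 spans chr21:42311667-42315409, TFF2 chr21:42346357-42350994 and TFF1 chr21:42362282-42366535, with 30.9 and 11.3 kb between neighbours. Their values did not follow one pattern.

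TFF1 was 15.4, 20.2 and 16.3 TPM in GFP and 8.5, 9.73 and 17.1 TPM in CTNNB1. CTNNB1 replicate 3 stood in the GFP range, and the log2 difference of -0.57 (-1.03 to -0.11) missed the threshold. Without that library it was -0.85 and passed. In the hairpin arm TFF1 was 17.5, 11.4 and 11 TPM in shNT1 and 5.65, 6.83 and 5.6 TPM in shAPC, without overlap, a log2 difference of -1 (-1.34 to -0.67).

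TFF2 was 1.34, 1.67 and 1.63 TPM in GFP and 0.615, 1.18 and 2.04 TPM in CTNNB1. It was 1.91, 0.41 and 3.48 TPM in shNT1 and 0.16, 0.977 and 0.785 TPM in shAPC. Groups overlapped in both arms, and neither log2 difference (-0.21, interval -0.65 to 0.24, and -0.72, interval -1.52 to 0.07) passed. Without shNT1 replicate 2, the lowest shNT1 library, the second was -1.18 and passed.

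TFF3, the main trefoil factor of intestinal goblet cells, was 1.99, 2.86 and 2.18 TPM in GFP and 3.02, 2.97 and 3.35 TPM in CTNNB1. All CTNNB1 libraries were above all GFP libraries, but the log2 difference of 0.31 (0.05 to 0.56) did not pass. Without GFP replicate 2 it was 0.41 and passed. In shNT1 it was 3.61, 4.27 and 2.9 TPM and in shAPC 3.57, 3.74 and 3.12 TPM, which overlapped (log2 -0.03, -0.3 to 0.24).

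AGR2 and AGR3 are paralogs 49.7 kb apart on chromosome 7 (AGR2 chr7:16791811-16804999 and AGR3 chr7:16854681-16881983, GRCh38.p14). How reads shared between paralogs were assigned is not given in the sources used here. AGR2 was 1604.8, 1622 and 1559.5 TPM in GFP and 1231.6, 1177.2 and 1085.4 TPM in CTNNB1. It was 1919.3, 1960 and 1935.2 TPM in shNT1 and 1432.8, 1452.5 and 1537.8 TPM in shAPC. The groups of each arm were apart, with similar log2 differences of -0.46 (-0.57 to -0.34) and -0.39 (-0.51 to -0.28).

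AGR3 was 56.2, 53.6 and 58.0 TPM in GFP and 44.1, 38.5 and 41.6 TPM in CTNNB1. It was 63.4, 62.6 and 68.9 TPM in shNT1 and 26.1, 30.0 and 31.7 TPM in shAPC. The groups did not overlap in either arm, and the log2 difference was -0.43 (-0.57 to -0.29) in the first and -1.13 (-1.3 to -0.96) in the second. The ratio of AGR2 to AGR3 in TPM was 26.1 to 31.3 in the 9 libraries of GFP, CTNNB1 and shNT1, and 48.5 to 54.9 in the shAPC libraries.

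Of the regulators, SPDEF was 13.9, 14.3 and 13.5 TPM in GFP and 9.19, 10.6 and 11.3 TPM in CTNNB1. It was 13.8, 12.1 and 11.4 TPM in shNT1 and 9.03, 8.51 and 7.98 TPM in shAPC. Perturbed libraries were below their controls without overlap, by log2 differences of -0.4 (-0.57 to -0.22) and -0.49 (-0.68 to -0.3). ATOH1 was 1.03, 1.69 and 1.96 TPM in GFP against 1.76, 1.66 and 1.76 TPM in CTNNB1. In the hairpin arm it was 2.06, 2.22 and 1.43 TPM against 1.8, 1.16 and 1.27 TPM. The ATOH1 groups overlapped in both arms, and its intervals (-0.21 to 0.43 and -0.6 to 0.07) hold 0.

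RETNLB, a secreted resistin-like protein of colonic goblet cells, was higher in both perturbations, opposite to every gene of the list that fell. It was 1.97, 2.46 and 2.39 TPM in GFP and 5.75, 5.85 and 6.89 TPM in CTNNB1. It was 3.07, 2.71 and 3.93 TPM in shNT1 and 9.93, 10.6 and 9.77 TPM in shAPC. Every perturbed library lay above every control library of either arm. The means were 2.71-fold and 3.12-fold higher, with log2 differences of 1.13 (0.9 to 1.35) and 1.4 (1.16 to 1.64). The highest upper bound among the other 9 genes was 0.56 in the CTNNB1 arm and 0.24 in the shAPC arm, both for TFF3.

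**Figure D2:**
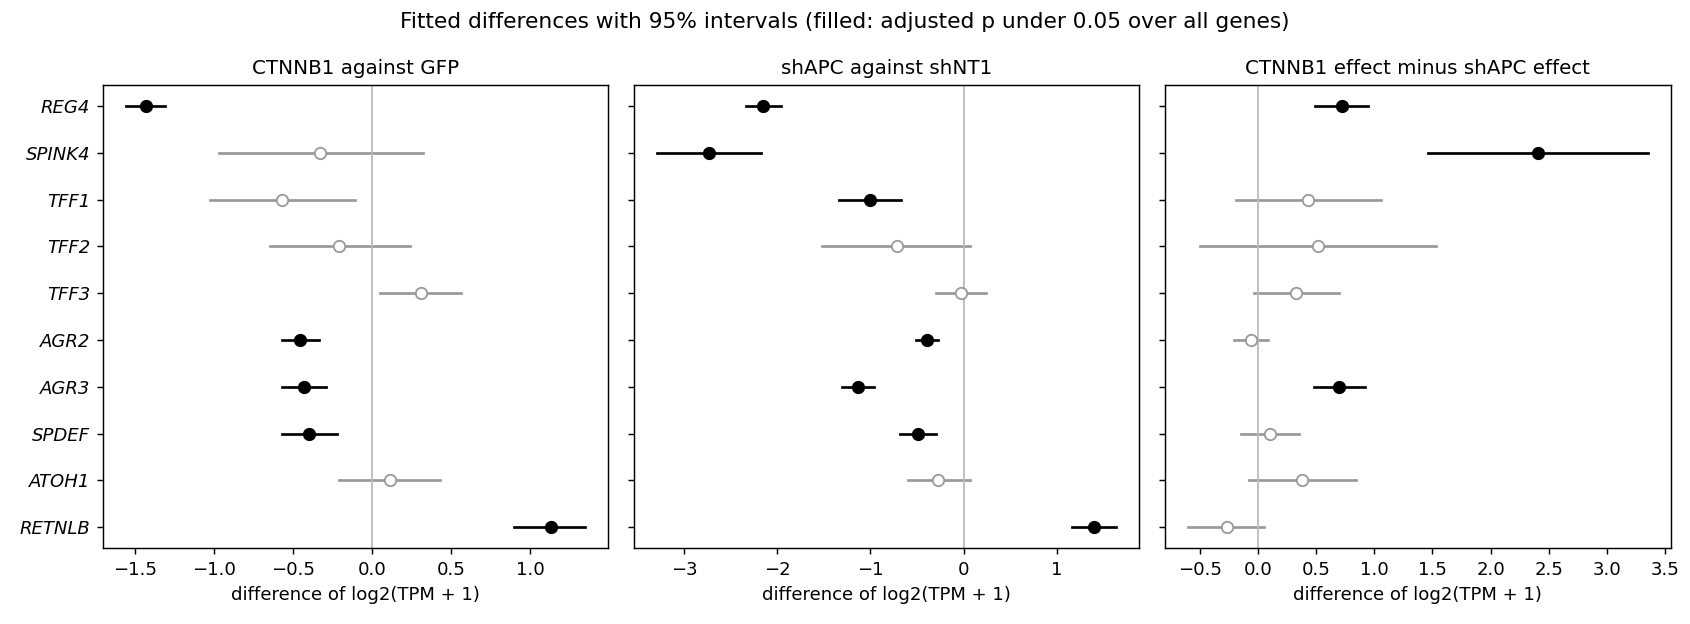
Fitted differences of log2(TPM + 1) (x axis) for the 10 genes (y axis) in CTNNB1 against GFP, shAPC against shNT1, and the first minus the second; points are estimates, lines 95% intervals, and filled points passed an adjusted p under 0.05 over all genes. RETNLB alone lies to the right with a filled point in the first 2 panels, and REG4, SPINK4 and AGR3 are filled in the third.

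The ratio of REG4 to RETNLB in TPM puts the contrast in 1 number per library. It was 23.8 to 28.8 in GFP and 3.02 to 3.77 in CTNNB1, and 26.6 to 33.4 in shNT1 and 1.89 to 2.18 in shAPC. Across the 12 libraries the Pearson correlation of RETNLB with the others on log2(TPM + 1) was -0.82 for REG4, -0.9 for AGR3 and -0.93 for SPDEF, but 0.47 for TFF3. These libraries fall into the 4 groups, so the correlations describe the group pattern. SPDEF and TFF1 correlated at 0.93, and ATOH1 with SPDEF at 0.3.

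**Figure D3:**
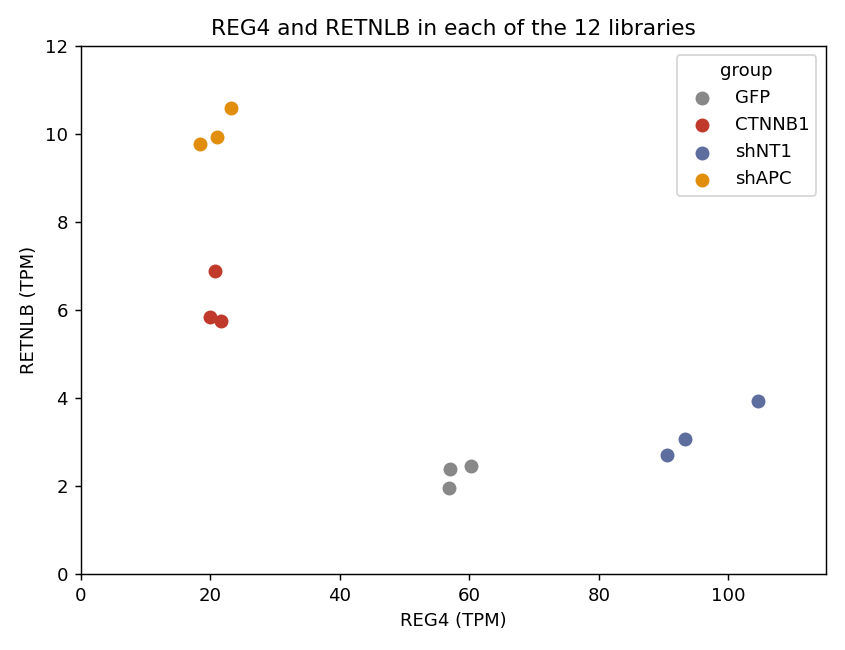
TPM of REG4 (x axis) against TPM of RETNLB (y axis); each point is 1 of the 12 libraries, coloured by group. The perturbed libraries sit at low REG4 (18.4 to 23.2 TPM) and high RETNLB (5.75 to 10.6 TPM), apart from the controls.

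The shAPC effect was subtracted from that of CTNNB1 in 1 limma fit of all 12 libraries. The arms also differ in vector, harvest day and doxycycline, which cannot be told apart from the perturbations here. REG4, SPINK4 and AGR3 passed, 3 of 10, against 16.1% of 11741 genes (13.3% positive, 2.76% negative). All 3 differences were positive, with the more negative value in the shAPC arm. The difference was 0.72 for REG4 (SE 0.11, limma adjusted p = 8e-04), 2.41 for SPINK4 (SE 0.44, limma adjusted p = 0.003) and 0.7 for AGR3 (SE 0.10, limma adjusted p = 0.00066), against a median of 0.11 over all genes, which was 0 under quantile normalization as under median-ratio scaling. The other 7 did not pass. For RETNLB the difference was -0.27 (95% interval -0.6 to 0.05), for SPDEF 0.1 (-0.15 to 0.35) and for AGR2 -0.06 (-0.21 to 0.09).

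The 2 control groups were compared in the same fit. They differ in vector, harvest day and doxycycline, which cannot be told apart. GFP was lower than shNT1 for 6 of 10 genes (REG4, SPINK4, TFF3, AGR2, AGR3 and RETNLB), against 29.6% of 11741 genes called with 20.8% called lower and 8.81% higher. REG4 differed by -0.72 on the log2 scale (SE 0.08, limma adjusted p = 1.3e-05), while the means of the CTNNB1 and shAPC groups were 20.8 ± 0.837 and 20.9 ± 2.4 TPM (SD, n = 3 each). SPINK4 differed by -1.14 (SE 0.31, limma adjusted p = 0.014) and AGR2 by -0.28 (SE 0.05, limma adjusted p = 0.00084). RETNLB was also lower in GFP (-0.36, SE 0.11, limma adjusted p = 0.021), the same direction as REG4. The calls of SPINK4, TFF3, AGR3 and RETNLB held in 14 of 19, 15 of 19, 8 of 20 and 15 of 20 alternatives, and those of REG4 and AGR2 in all 20. AGR3 lost its call without any 1 of the 6 control libraries. SPINK4 lost it without GFP replicate 2 (-0.77) or shNT1 replicate 1 (-0.92), TFF3 without GFP replicate 1 (-0.38) or shNT1 replicate 2 (-0.35), and RETNLB without GFP replicate 1 (-0.3) or shNT1 replicate 3 (-0.25).

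Further goblet genes were taken from a list of 22 chosen from general knowledge with earlier results of these libraries known. P-values given for genes of this list and of the lists below are therefore a description, and no support is drawn from them. Of the 22, 12 were expressed enough to test in each arm. In the CTNNB1 arm 4 fell, 3 rose and 5 did not pass, where 7.16% of all genes were called lower and 16.3% higher (median log2 difference -0.06, against 0.06 over all genes). The number called ranged from 5 to 8 over the alternatives, with 6 lower and 2 higher both under median-ratio scaling and without CTNNB1 replicate 1. In the shAPC arm 10 fell, 0 rose and 2 did not pass, where 14.9% of all genes were called lower and 7.24% higher (median -0.52, against -0.04). There 7 to 11 were called over the alternatives, with 9 lower and 2 higher under median-ratio scaling. The 4 that fell in both arms were CAPN9, CREB3L1, ERN2 and KLF4. SYTL2, which encodes a vesicle-trafficking protein, rose in the CTNNB1 arm (0.51, SE 0.10, limma adjusted p = 0.0046) and fell in the shAPC arm (-0.25, SE 0.06, limma adjusted p = 0.018). The difference between the arms was 0.76 (SE 0.12, limma adjusted p = 0.001). SYTL2 averaged 14.6 ± 0.362 TPM in GFP, 21.3 ± 3.33 in CTNNB1, 21.4 ± 1.18 in shNT1 and 17.8 ± 0.345 in shAPC (SD, n = 3 each). Its controls also differed, GFP against shNT1 by -0.52 (SE 0.08, limma adjusted p = 0.00044).

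CREB3L1, a membrane-bound transcription factor of secretory cells, fell from 100.1 ± 7.5 to 72.7 ± 4.04 TPM with CTNNB1 and from 142.4 ± 11 to 85.2 ± 1.62 TPM with shAPC (SD, n = 3 each). KLF4, a factor of goblet cell differentiation, fell from 12.3 ± 0.898 to 8.33 ± 0.619 TPM and from 10.5 ± 0.868 to 5.94 ± 0.352 TPM. ERN2, the endoplasmic reticulum stress sensor of mucous cells, fell from 8.7 ± 0.737 to 6.68 ± 0.369 TPM and from 12.2 ± 1.3 to 7.79 ± 0.649 TPM. CAPN9, a calpain of the digestive tract, fell from 4.0 ± 0.194 to 2.19 ± 0.51 TPM and from 3.21 ± 0.231 to 2.22 ± 0.408 TPM. The limma adjusted p-values were 0.0011 and 4.4e-05 for CREB3L1, 0.0016 and 0.00027 for KLF4, 0.016 and 0.0016 for ERN2, and 0.0044 and 0.037 for CAPN9. The other 2 genes that rose in the CTNNB1 arm, named after their values were seen, were FOXA3 (0.51) and HES6 (0.39, limma adjusted p = 0.049).

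Of 12 regulators upstream of goblet fate, 9 were tested in each arm. In the CTNNB1 arm 4 rose and 0 fell, beside 23.5% of all genes called and 16.3% called higher (median 0.22, against 0.06). In the shAPC arm 1 rose and 2 fell, so that 3 of 9 were called beside 22.1% of all genes (median -0.04, as over all genes). SOX9, a factor of crypt base and Paneth cells, was the 1 called in both, at 0.35 (SE 0.07, limma adjusted p = 0.0056) and 0.24 (SE 0.07, limma adjusted p = 0.03) on the log2 scale. The others, named after their values were seen, were HES1, NOTCH1 and ELF3, which rose in the CTNNB1 arm, and FOXA1 and KLF5, which fell in the shAPC arm. HES1, the Notch effector that represses ATOH1, went from 42.2 ± 2.63 to 59.1 ± 7.3 TPM with CTNNB1, and stood at 58.4 ± 4.17 and 55.4 ± 3.22 TPM without and with the APC hairpin (SD, n = 3 each). Its effects differed between the arms by 0.55 (SE 0.12, limma adjusted p = 0.0073). The controls of HES1 also differed, GFP against shNT1 by -0.46 (SE 0.08, limma adjusted p = 0.00094).

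Markers of other epithelial cell types were summed per library. Of 7 gastric surface markers 4 were tested (MUC5AC, ANXA10, CTSE and VSIG1), and all 4 fell in both arms, where 7.16% and 14.9% of all genes were called lower, with medians of -0.94 and -1.22. Their sum went from 437.1 to 455.5 TPM in GFP to 230.4 to 253.6 TPM in CTNNB1, and from 376.1 to 401.9 TPM in shNT1 to 205.2 to 216.2 TPM in shAPC, while GKN1 and GKN2 were listed at 0 throughout. MUC5AC had been seen to fall before this list was drawn up. ANXA10 made up most of the gastric surface sum, at 379.3 TPM in GFP, 199.6 in CTNNB1, 315.3 in shNT1 and 175.9 in shAPC. VSIG1 passed the filter in the shAPC arm only through shNT1 (4.89 TPM, against 0.802 TPM in shAPC). Enterocyte markers summed to 195.3 to 202.2 TPM in GFP, 162.6 to 173.7 TPM in CTNNB1, 149.9 to 160.1 TPM in shNT1 and 91 to 101.2 TPM in shAPC, with 2 of 9 tested and CA1, ALPI and AQP8 at 0. KRT20 made up most of this sum, at 139.1 TPM in GFP and 138.2 in CTNNB1 (log2 -0.01, not called), and 106.4 in shNT1 and 69.3 in shAPC. CA2, the other gene tested, went from 56.9 to 27.5 TPM with CTNNB1 and from 45.6 to 27.7 TPM with shAPC. All 8 enteroendocrine markers were under 1 TPM in every library, and 5 of 6 tuft markers likewise. The 7 Paneth cell markers summed to 6884.3 to 6953.9 TPM in GFP, 7193.1 to 8208.5 TPM in CTNNB1, 7145.2 to 7470.7 TPM in shNT1 and 7547 to 8305.4 TPM in shAPC. LYZ, which encodes lysozyme, made up most of this sum at 6465.5 to 8018.8 TPM and was called higher in the CTNNB1 arm (0.16, SE 0.05, limma adjusted p = 0.041). MMP7, a matrix metalloprotease, lay between 268.5 and 488.6 TPM and was called lower in the shAPC arm (-0.42, SE 0.05, limma adjusted p = 0.00044). The defensins DEFA5 and DEFA6 and REG3A were listed at 0. The part of these markers in the results above was not tested.

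**Figure D4:**
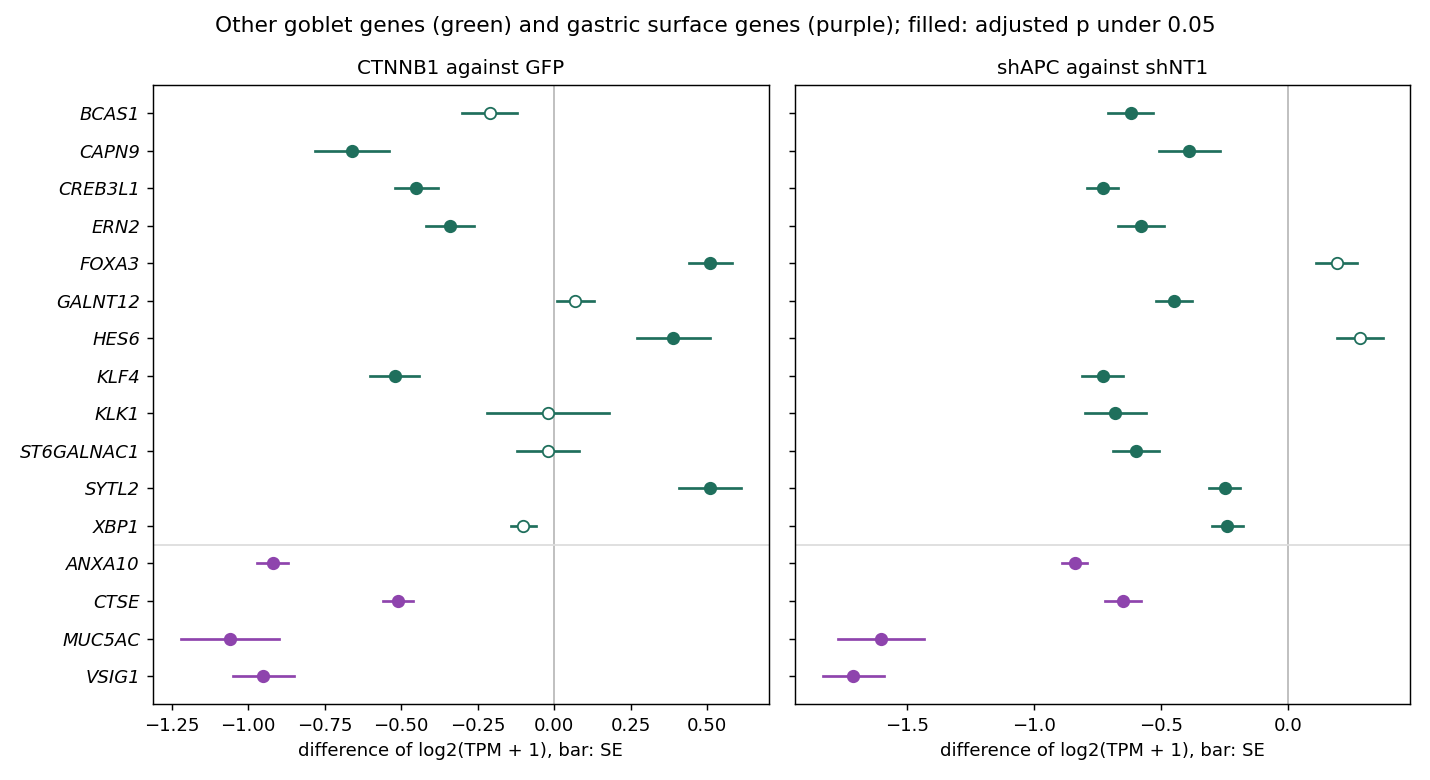
Difference of log2(TPM + 1) with its SE (x axis) for the 12 further goblet genes tested (green) and the 4 gastric surface genes tested (purple) in each arm; filled points passed an adjusted p under 0.05. In shAPC against shNT1, 10 of the 12 green and all 4 purple points are filled and left of 0.

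Genes with the most similar pattern were ranked by Pearson correlation of log2(TPM + 1) over the 12 libraries among the 9438 genes whose mean reached 5 TPM. For REG4 these were INPP1 (0.984), HEPH (0.983), CLRN3 (0.979), LPCAT4 (0.974) and MCTP1 (0.967). For RETNLB they were SP5 (0.983), KREMEN1 (0.977), PTK7 (0.973), CSRNP2 (0.972) and IFT57 (0.971). The 12 libraries fall into the 4 groups, so these correlations, the highest among 9438 genes, describe the group pattern only. HEPH went from 8.01 to 4.13 TPM and from 10.5 to 4.49 TPM in group means, and SP5, a transcription factor induced by WNT, from 2.23 to 13.2 TPM and from 4.23 to 23.9 TPM.

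In the authors' deposited table for CTNNB1 the same 5 genes had an adjusted p under 0.05. In the authors' deposited table for APC 6 did, 5 lower and 1 higher, and TFF1 (log2 -1.08) did not. For REG4 the authors' deposited tables gave log2 fold changes of -1.55 and -2.17, for RETNLB 1.3 and 1.65, and for SPINK4 -0.49 and -3.58.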

How the data were processed

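RNA from 12 HT-29 libraries was sequenced after an mRNA library kit, per the labels. The authors deposited TPM per gene and library, and 2 limma tables. The submitters' processing notes name STAR 2.7.3a, limma and hg38, with no role. The quantifier, annotation and handling of shared reads are not given in the sources used here. Per the file headers, the deposited limma tables hold log2 fold changes, mean log2 expression, p-values and adjusted p-values. The authors' limma output in those files also holds 2 score columns, the moderated statistic and the log odds, per the file headers, and these were not used. TPM keeps no depth, so no counting interval was derived.

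In R 4.3.3, limma 3.58.1 was fitted to each arm on the scale log2(TPM + 1) with a mean-variance trend, keeping genes whose mean over the fitted libraries reached 1 TPM. Fold changes of low genes are understated on this scale. Genes were called at a Benjamini-Hochberg adjusted p under 0.05 over all genes tested. The difference between arms and GFP against shNT1 came from 1 fit of 12 libraries. The fits were tested on simulated data in which only genes averaging at least 5 TPM were changed. Genes of the list below that level were not covered. All 10 genes are named, and of the further lists those called in both arms, up to 6 each. For REG4 and RETNLB the 5 most correlated genes are named. The members and lists were chosen with earlier results of these data known, and motifs after the promoters had been seen. Coordinates and promoters come from RefSeq GRCh38.p14, matched by symbol (10 of 10 and 7 of 10).

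Settings varied 1 at a time were the pseudocount (0.1), the filter (none, or a mean of 5 TPM), the scaling (median-ratio or quantile), the trend (none), a replicate block, 1 fit of all 4 groups, the threshold (0.01) and the omission of each library in turn.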

Additional observations from a re-analysis of the deposited data

Results flagged for a closer look

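The difference between the CTNNB1 and shAPC effects passed the threshold for 3 of the 10 genes, against 16.1% of 11741 genes. It is built from arm values already known, so its p-values are a description and no support is drawn from them. The difference (CTNNB1 effect minus shAPC effect, log2) was 0.72 for REG4 (limma adjusted p = 8e-04), 2.41 for SPINK4 (limma adjusted p = 0.003) and 0.7 for AGR3 (limma adjusted p = 0.00066). Over the alternatives it ranged from 0.61 to 0.79 for REG4, from 2.04 to 4.03 for SPINK4 and from 0.59 to 0.76 for AGR3, and each passed in all of them (20, 19 and 20 alternatives), SPINK4 not being tested at a mean TPM of at least 5. The controls, GFP against shNT1, differed by -0.72 for REG4, -1.14 for SPINK4 and -0.21 for AGR3. REG4 averaged 20.8 TPM in CTNNB1 and 20.9 TPM in shAPC, and SPINK4 in shAPC was 0.606, 0 and 0.706 TPM.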

How the results depend on the processing

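Fold changes of the 10 genes in the 4 comparisons gave 682 values under the alternatives, of which 638 kept their direction and side of the threshold, 26 lost and 6 gained a call, and 12 changed sign, none of these for a called gene. In both arms every called gene stayed called in each alternative that tested it. With all libraries the sign changes were -0.03 for ATOH1 in the CTNNB1 arm (quantile), 0.01 for TFF3 in the shAPC arm and -0.01 for SPDEF in the difference between arms (both median-ratio scaling), and 0.09 (pseudocount 0.1) and 0.13 (quantile) for TFF2 in GFP against shNT1. Without 1 library, ATOH1 ranged from -0.05 to 0.22 and TFF2 from -0.44 to 0.02 in the CTNNB1 arm, TFF3 from -0.14 to 0.08 in the shAPC arm, and TFF2 from -0.51 to 0.33 in GFP against shNT1. Genes called over the whole table numbered 2730, 2615, 1885 and 3475 in CTNNB1 against GFP, shAPC against shNT1, the difference between arms and GFP against shNT1. At an adjusted p under 0.01 they numbered 1253, 1151, 628 and 1878. Without 1 library they ranged from 1499 to 3190, 1484 to 2252, 995 to 2143 and 2338 to 4116. Of the 10 genes, 6 were called in GFP against shNT1, 2 at an adjusted p under 0.01, 3 without a filter, and 3 to 6 without 1 library. The labels link same-numbered libraries by the number only. Deviations from the group mean correlated between them at 0.07 to 0.22 in the CTNNB1 arm (mean 0.13, against -0.07 for other numbers). In the shAPC arm this was -0.21 to -0.01 (mean -0.12, against 0.06). Deviations from a group mean cancel out within the group. The value for other numbers is therefore tied to that for same numbers and is no separate comparison. A replicate block gave 2895 calls in the CTNNB1 arm, TFF1 among them, and 1767 in the shAPC arm. It gave 1145 calls in the difference between arms and left the 3 calls of REG4, SPINK4 and AGR3 (adjusted p = 0.0085, 0.0092 and 0.0016, limma). The cause was not tested. Higher calls made up 69.5% and 32.8% of calls in the arms, 49.4% and 47.6% under median-ratio scaling; for the difference between arms and for the controls 82.8% and 29.8% became 55% and 48.6%.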
